A study of Hordeum vulgare with 12 samples.

Results

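In barley, 62 genes of 22437 tested had more transcript in the mutant blf13 than in its background cultivar Bonus and less transcript in the mutant nal1 than in its wild type Sebastian. They were chosen from these same libraries by a rule on their CPM (the reads of a gene relative to all reads counted in genes, scaled between libraries by TMM). The rule asked for a mean of at least 1 CPM over the 12 libraries. It also asked that every blf13 library lie above every Bonus library with a ratio of means of at least 1.3, and that every nal1 library lie below every Sebastian library with a Sebastian to nal1 ratio of at least 1.3. Over all tested genes, every blf13 library lay above every Bonus library in 9.43%, and every Sebastian library above every nal1 library in 17.7%. The direction in each mutant is therefore set by the choice, and the values of both mutant comparisons are given below as a description without a test. The files hold gene IDs of the barley MorexV3 annotation and pair none of them with a name, and 0 of 81687 IDs matched the reference gene table, so the genes are given by ID with no function.

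The sampled tissue was the lowest centimetre of the shoot of Hordeum vulgare plants aged 7 days, with leaf 1 taken off. This piece includes the apex and the bases of young leaves that are still growing. There were 4 genotypes with 3 biological replicates each, and each replicate pooled 6 plants. They were blf13 in the Bonus background, Bonus, nal1 in the Sebastian background, and Sebastian. The title of the series calls the blf13 allele gain-of-function, places it in the barley orthologue of NARROW LEAF1 and links it to wider leaves, while the kind of allele in nal1 is not given in the sources used here. Both mutants carry their allele in a different cultivar, so each was compared with its own cultivar, and any other difference between a mutant line and that cultivar is part of its comparison.

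NARROW LEAF1 is known from rice as a plant-specific protease-like protein that acts on leaf width, vein number and plant stature, with effects on cell division and auxin transport. A leaf of a grass grows from its base, where cells divide before they elongate and mature, so the sampled piece covers the zone in which leaf width is set. In whole tissue, fewer cells of a type and less RNA per cell cannot be told apart.

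Libraries held between 14831979 and 62995658 reads in genes. One library stood apart in mapping, blf13 replicate 2 with 29.8% unmapped reads against 10.3% to 17.8% in the other libraries. The labelled tissue and the mutated gene could not be checked by marker genes, since no ID has a name. For replicate pairs of a genotype, chi-square divided by its degrees of freedom was 3.76 to 11, where sampling noise alone gives about 1, so none was counted as a repeat of another. The labels call the replicates biological and each is its own pool of plants.

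The medians of the 2 changes over the 62 genes were close in size. The rule cut both ratios at the same limit of 1.3, so this closeness is not independent of the choice. The median ratio of means was 1.70 for blf13 over Bonus, with 18 genes at 2 or more, 21 between 1.5 and 2 and 23 between 1.3 and 1.5. For Sebastian over nal1 the median ratio was 1.79, with 23 genes at 2 or more, 18 between 1.5 and 2 and 21 between 1.3 and 1.5. The median log2 fold change fitted with edgeR was 0.76 for blf13 minus Bonus, where it was −0.01 over all tested genes, and −0.82 for nal1 minus Sebastian, where it was 0.01 over all tested genes. With the 1 gene that had no count in nal1 set to the bound a floor of 3 counts allows, the second median was −0.76. In 35 genes the nal1 change was the larger one on the log2 scale and in 27 the blf13 change. The 2 sizes were within 0.25 of each other in 23 genes, and their rank correlation over the 62 genes was weak (Spearman rho = 0.16, a description over genes that share their libraries).

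**Figure D1:**
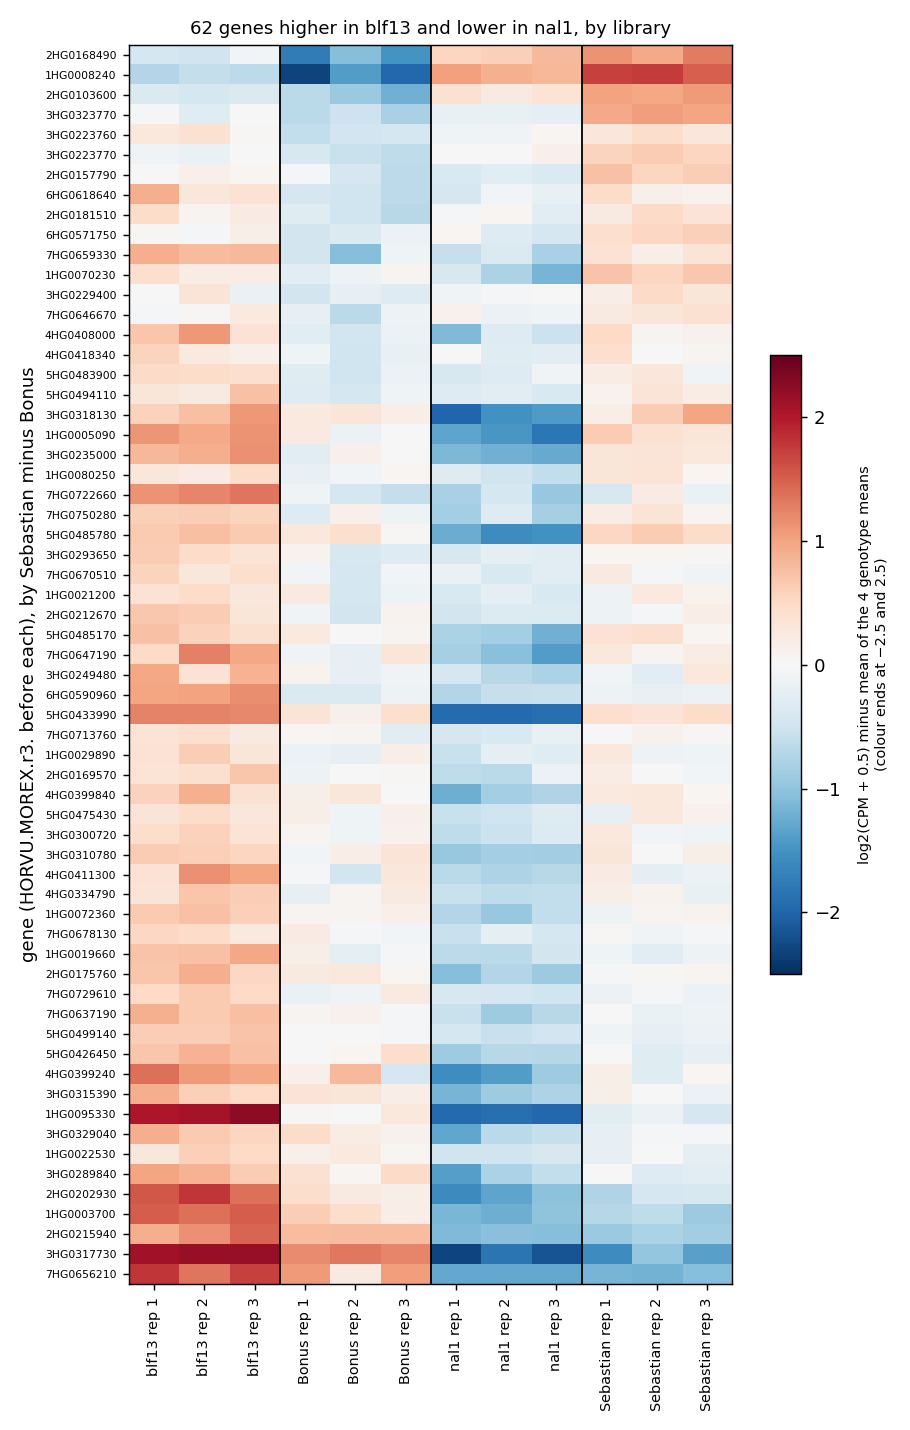
Level of each of the 62 genes (rows, ordered by Sebastian minus Bonus) in each of the 12 libraries (columns), as log2(CPM + 0.5) minus the mean of the 4 genotype means. The blf13 columns are redder than the Bonus columns and the nal1 columns bluer than the Sebastian columns in each row, as the rule requires, while the wild types differ from each other mainly in the top and bottom rows.

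The gene that stood out in both mutants was HORVU.MOREX.r3.1HG0095330 on chromosome 1H. It had 85.5, 89.2 and 98.8 CPM in the blf13 libraries, against 21.1, 20.8 and 24.8 CPM in Bonus. In nal1 it had 5.03, 5.24 and 4.92 CPM, against 17.2, 18.6 and 15.3 CPM in Sebastian. The blf13 libraries lay about as far above Bonus as nal1 lay below Sebastian, with a log2 fold change of 2.04 (SE 0.09) in blf13 and −1.74 (SE 0.11) in nal1. It had the largest blf13 to Bonus ratio of the 62, at 4.10, and the ratio of Sebastian to nal1 was 3.37.

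In all, 9 genes changed 2-fold or more by the ratio of means in both mutants, and the others of these 9 had far fewer reads. Among them, HORVU.MOREX.r3.2HG0202930 on 2H had 4.54, 5.40 and 3.95 CPM in blf13, against 1.82, 1.5 and 1.39 CPM in Bonus. Its nal1 libraries had 0.0671, 0.189 and 0.344 CPM, which is 14 reads in all, against 0.516, 0.787 and 0.792 CPM in Sebastian. The log2 fold changes were 1.56 (SE 0.23) in blf13 and −1.76 (SE 0.36) in nal1, near equal in size, although both Sebastian-background genotypes lay below Bonus. Its edgeR call in nal1 was lost without nal1 replicate 2 or Sebastian replicate 3. The call in blf13 was lost without the libraries numbered 2 of blf13 and Bonus.

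A second pair of genes in this group fell much further in nal1 than they rose in blf13. HORVU.MOREX.r3.1HG0005090 on 1H had 6.52, 5.79 and 6.64 CPM in blf13, against 3.34, 2.46 and 2.79 CPM in Bonus. In nal1 it was at 0.805, 0.694 and 0.442 CPM, against 4.60, 3.76 and 3.56 CPM in Sebastian. HORVU.MOREX.r3.3HG0235000 on 3H had 2.44, 2.61 and 3.18 CPM in blf13, against 0.860, 1.32 and 1.16 CPM in Bonus, and 0.268, 0.221 and 0.197 CPM in nal1, against 1.55, 1.57 and 1.5 CPM in Sebastian. Their nal1 changes were −2.61 (SE 0.20) and −2.75 (SE 0.26) on the log2 scale, and their blf13 changes 1.15 (SE 0.16) and 1.28 (SE 0.19). In nal1, HORVU.MOREX.r3.3HG0235000 had 15 reads in all.

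A further 2 of the 9 also rested on few reads. HORVU.MOREX.r3.4HG0411300 on 4H had 1.36, 2.68 and 2.34 CPM in blf13, against 0.910, 0.550 and 1.25 CPM in Bonus, so that the lowest blf13 library was barely above the highest Bonus library. It had 0.402, 0.347 and 0.393 CPM in nal1, against 1.16, 0.716 and 0.808 CPM in Sebastian. This gene passed the edgeR test in neither mutant comparison, and the rule kept it in 10 of the 12 runs with 1 library left out. HORVU.MOREX.r3.1HG0003700 on 1H had 3.48, 3.11 and 3.46 CPM in blf13, against 1.62, 1.39 and 1.07 CPM in Bonus. Its levels were 0.134, 0.0946 and 0.197 CPM in nal1, against 0.344, 0.394 and 0.242 CPM in Sebastian. Its nal1 comparison held 9 reads in nal1 and 34 in Sebastian, which scales to a nal1 to Sebastian ratio of 0.447. Its 95% interval ran from 0.188 to 0.951 and covers counting error only. By edgeR this gene was called in blf13 and not in nal1. The blf13 call was lost without the libraries numbered 2 of blf13 and Bonus.

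**Figure D2:**
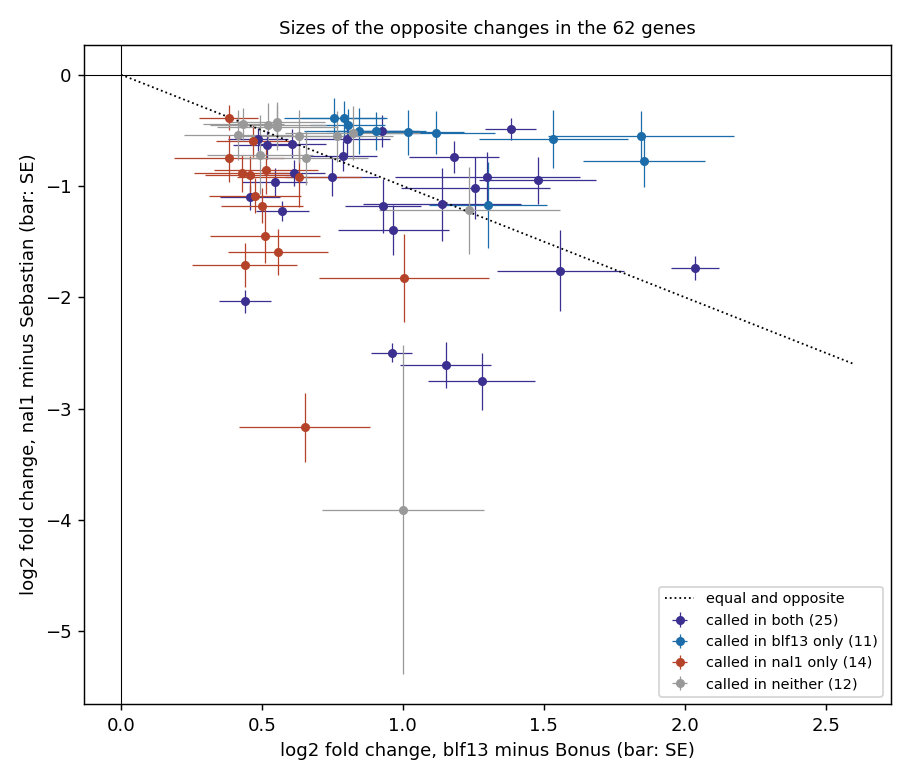
Log2 fold change of nal1 minus Sebastian (vertical) against that of blf13 minus Bonus (horizontal) for the 62 genes, with bars for the SE and colours for the comparisons in which a gene passed the edgeR test. The dotted line marks equal and opposite changes, 25 genes passed in both comparisons, and the lowest point, at −3.91, is the gene with no count in nal1, whose fitted value depends on the prior count.

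The 2 genes whose blf13 change most exceeded the nal1 change, and the 2 with the most unequal sizes the other way, were as follows. HORVU.MOREX.r3.7HG0722660 on 7H had 5.56, 5.94 and 6.54 CPM in blf13, against 2.07, 1.58 and 1.35 CPM in Bonus, a log2 fold change of 1.85 (SE 0.22). It had only 1.07, 1.55 and 0.934 CPM in nal1, against 1.59, 2.68 and 1.99 CPM in Sebastian, a change of −0.77 (SE 0.24) in which the highest nal1 and lowest Sebastian libraries nearly met. HORVU.MOREX.r3.2HG0168490 on 2H was also changed more in blf13, with 1.11, 1.05 and 1.61 CPM against 0.152, 0.550 and 0.279 CPM in Bonus (1.84, SE 0.33). In nal1 it had 2.68, 2.84 and 3.34 CPM, against 4.30, 3.72 and 4.91 CPM in Sebastian (−0.55, SE 0.22).

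The opposite imbalance was seen in HORVU.MOREX.r3.3HG0318130 on 3H. It had 3.63, 4.17 and 5.35 CPM in blf13, against 2.78, 2.93 and 2.6 CPM in Bonus (0.65, SE 0.23), and 0.201, 0.473 and 0.541 CPM in nal1, against 2.63, 3.83 and 4.98 CPM in Sebastian (−3.17, SE 0.31). Its Sebastian to nal1 ratio of 9.41 was the highest among the 61 genes with counts in nal1. HORVU.MOREX.r3.7HG0656210 on 7H was close to absent from the Sebastian background. It had 0 reads in the 3 nal1 libraries, against 1, 1 and 5 reads in Sebastian, and 3.68, 2.57 and 3.46 CPM in blf13, against 2.02, 0.917 and 2.00 CPM in Bonus. With its nal1 reads set to a floor of 3 over the 3 libraries, the nal1 to Sebastian ratio was 0.723, or 1.38-fold lower. The 95% counting interval of the ratio without this floor reached 1.17, so a decrease was not detectable at this depth. Its place among the most unequal genes rests on the fitted −3.91, which depends on the prior count. The blf13 to Bonus ratio was 1.97, larger than the fold at the floor.

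**Figure D3:**
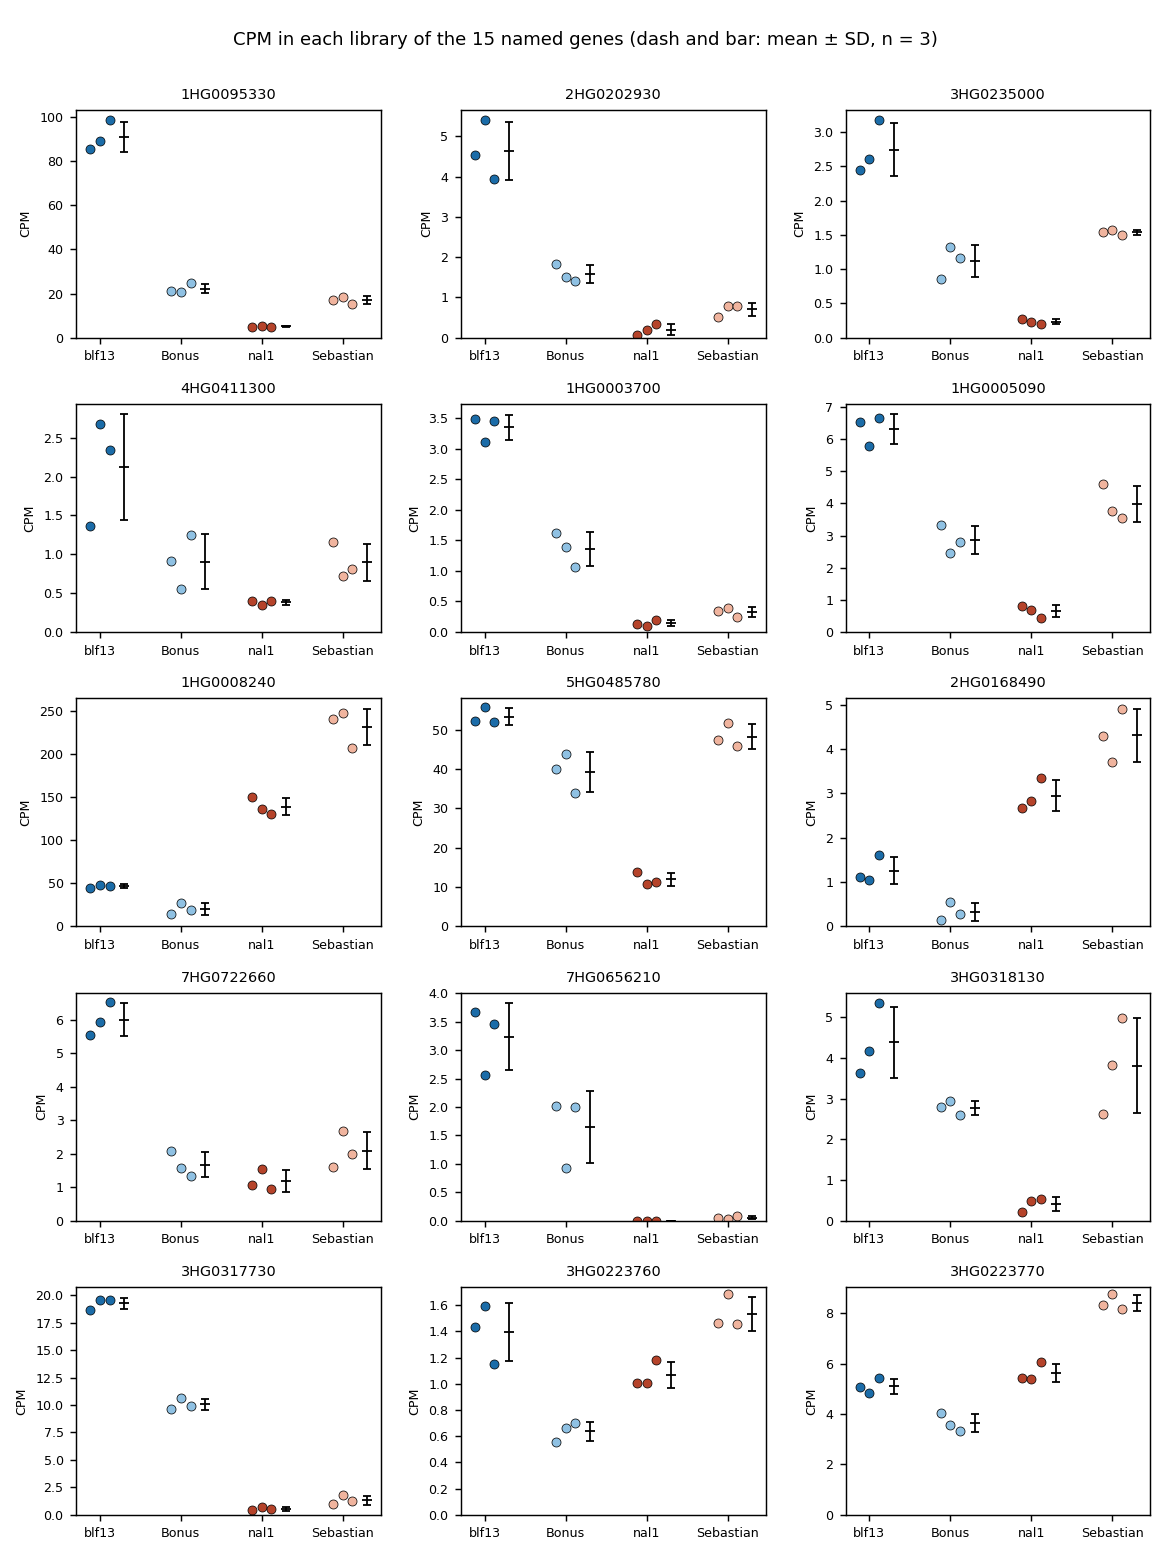
CPM in each library (points, replicates 1 to 3 from left to right) of the 15 genes described by ID, with the mean ± SD of each genotype (n = 3). HORVU.MOREX.r3.1HG0095330 reaches 98.8 CPM in blf13, while HORVU.MOREX.r3.1HG0008240 is lower in both Bonus-background genotypes than in both Sebastian-background genotypes.

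With edgeR's quasi-likelihood test and a Benjamini-Hochberg adjusted p under 0.05, 36 were called higher in blf13, where 1.21% of all tested genes were, and 39 lower in nal1, where 5.42% were. These comparisons chose the genes, and nothing is read from the excess. In both comparisons 25 passed (0.152% of all tested genes), in blf13 alone 11, in nal1 alone 14 and in neither 12. Of the 10 genes at 10 CPM or more, 9 passed in both, and of the 52 below, 16 did. The median SE of the log2 fold change was 0.10 in blf13 and 0.11 in nal1 for the 10 genes, and 0.19 and 0.21 for the 52. The number called in blf13 depended on single libraries, with 22 and 20 without blf13 replicate 1 or 2 and 23 and 20 without Bonus replicate 1 or 2, and the 25 called in both became 13 without blf13 replicate 2 and 16 and 15 without Bonus replicate 1 or 2. Fitted to the 6 libraries of each comparison alone, 17 were called in blf13 and 13 in both. This main fit did not pair libraries by replicate number, and with a replicate block within each cultivar background 27 were called in blf13 and 20 in both.

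With the nal1 change subtracted from the blf13 change, the difference of the mutant effects had a median log2 size of 1.56 over the 62 genes and a range of 0.77 to 4.91. It was called positive by edgeR in 56 of the 62, where 1.83% of all tested genes were, and negative in 0, where 3.39% were, again as a result of the choice. A further 9 genes passed the edgeR test in both directions without meeting the rule, 8 because a ratio of means was under 1.3 and 1 because its mean was under 1 CPM.

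The edges of the rule were populated. The 3 genes nearest inside the ratio limit had smaller ratios of 1.30016, 1.30119 and 1.31208, and the 3 nearest outside had 1.29996, 1.29627 and 1.29602. Another 180 genes met every condition but the ratio. At the level limit, the genes nearest inside had means of 1.01, 1.06 and 1.07 CPM and those nearest outside 0.964, 0.955 and 0.948 CPM, and 29 genes met every condition but the level.

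Most genes raised in blf13 were not lowered in nal1. The blf13 conditions alone held for 750 genes, of which the 62 are 8.27%, and the nal1 conditions alone held for 451 genes, of which they are 13.7%. Among the 750 genes, nal1 libraries played no part in the choice beyond the mean level, and there the nal1 minus Sebastian log2 fold change was above 0 in 482 (64.3%), with a median of 0.18. The edgeR test called 102 of the 750 higher in nal1 (13.6%, against 6.51% of tested genes of at least 1 CPM) and 41 lower (5.47%, against 6.39%). Among the 451 genes chosen in nal1 alone, the blf13 minus Bonus change was above 0 in 292 (64.7%), with a median of 0.13. Of the 451, 38 were called higher in blf13 (8.43%, against 1.24% of tested genes of at least 1 CPM) and 7 lower (1.55%, against 2.34%). Over tested genes of at least 1 CPM the change was above 0 in 49.2% for nal1 and 44.3% for blf13. All tested genes of 1 to 10 CPM had a median log2 fold change of 0.06 in blf13 and 0.10 in nal1. Any part of level in the shifts of the 750 and 451 genes was not tested. By the same limits, 111 genes were lower in blf13 and higher in nal1, 127 higher in both and 16 lower in both.

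The rule set no condition between the wild types, and here the 62 genes fell into 3 kinds. In 40 genes (64.5%) Sebastian and Bonus did not pass the edgeR test against each other, with log2 fold changes of −0.66 to 0.65 for Sebastian minus Bonus. In 38 of these 40, blf13 had the highest and nal1 the lowest mean of the 4 genotypes, so that both wild types lay between the mutants. The rule puts blf13 above Bonus and nal1 below Sebastian, so the choice favours this order where the wild types differ little. Higher in Sebastian were 16 genes (25.8%, against 8.44% of all tested genes and 7.95% of those of at least 1 CPM), by 0.30 to 3.64 on the log2 scale. Lower in Sebastian were 6 genes (9.68%, against 9.12% and 9.21%), with changes of −0.39 to −4.64. The rule favours genes with low Bonus and high Sebastian libraries, so the larger share on the higher side is not independent of the choice. Tested against a fold of 1.3, 10 genes were called higher and 5 lower, with no share over all tested genes at hand to set beside them. Every Sebastian library lay above every Bonus library in 22 of the 62 genes (15.4% of tested genes of at least 1 CPM) and below in 11 (18.2%). The wild types overlapped in 29 (66.5% of tested genes of at least 1 CPM).

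**Figure D4:**
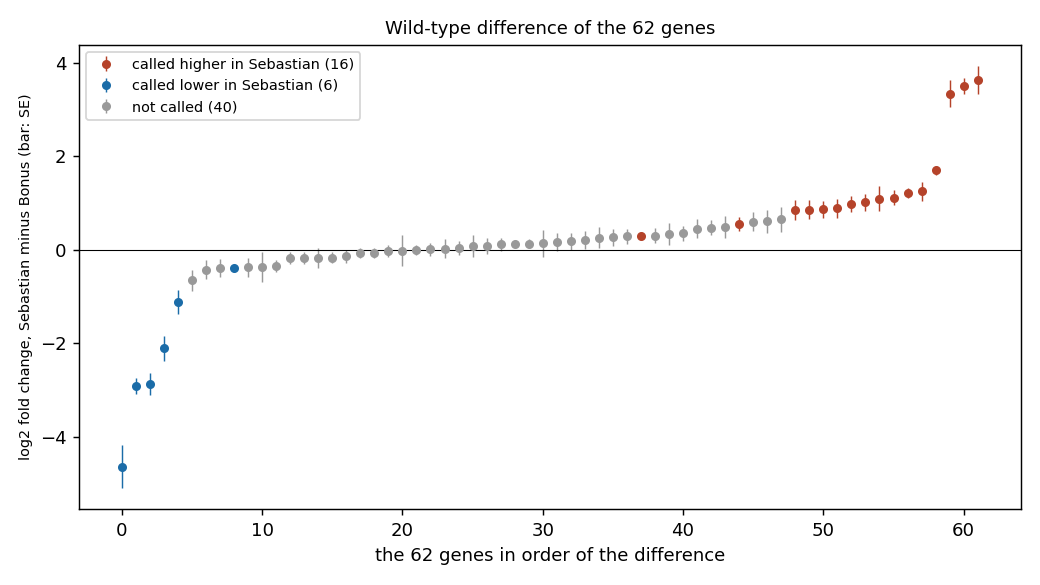
Log2 fold change of Sebastian minus Bonus for each of the 62 genes, in order, with bars for the SE and colours for the edgeR call. The 40 genes not called lie between −0.66 and 0.65, and 7 genes lie beyond 2 in either direction.

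Of the 16 genes higher in Sebastian, 12 had their highest mean in Sebastian and 12 their lowest in Bonus. HORVU.MOREX.r3.1HG0008240 on 1H, with the highest mean CPM of the 62, had 44.3, 48.5 and 46.6 CPM in blf13, against 14.5, 27.6 and 18.6 CPM in Bonus. In nal1 it had 149.97, 137 and 131 CPM, against 241, 248 and 208 CPM in Sebastian. Both Sebastian-background genotypes stood above blf13. Sebastian differed from Bonus by 3.50 on the log2 scale (SE 0.17), against 1.18 (SE 0.16) for blf13 minus Bonus and −0.74 (SE 0.15) for nal1 minus Sebastian. HORVU.MOREX.r3.2HG0168490, whose values are given above, had the largest difference on this side, 3.64 (SE 0.30, edgeR adjusted p = 7.53e-07). In 4 of the 62 genes the nal1 mean was above the blf13 mean.

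The 6 genes lower in Sebastian had blf13 as their highest and nal1 as their lowest genotype. The rule fixes this order for any gene whose Bonus mean lies above its Sebastian mean. HORVU.MOREX.r3.3HG0317730 on 3H had 18.6, 19.5 and 19.6 CPM in blf13, against 9.66, 10.6 and 9.94 CPM in Bonus. In nal1 it had 0.402, 0.757 and 0.492 CPM, against 0.990, 1.79 and 1.24 CPM in Sebastian. The mutant changes were 0.93 (SE 0.13) and −1.18 (SE 0.24), while Sebastian minus Bonus was −2.91 (SE 0.16). HORVU.MOREX.r3.7HG0656210 was again the extreme, at −4.64 (SE 0.46). These 2 genes were named as the extremes of this difference on this side, so its size is described and not tested. For HORVU.MOREX.r3.1HG0003700 the wild-type difference was −2.11 (SE 0.26, adjusted p = 4.20e-05), for HORVU.MOREX.r3.2HG0202930 −1.12 (SE 0.26, adjusted p = 0.00741), all by edgeR. The smallest of the named differences on this side was −0.39 in HORVU.MOREX.r3.1HG0095330 (SE 0.09, edgeR adjusted p = 0.00694).

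HORVU.MOREX.r3.5HG0485780 on 5H was raised little in blf13, with 52.2, 55.8 and 52.1 CPM against 40.0, 43.9 and 33.8 CPM in Bonus, a log2 fold change of 0.44 (SE 0.09). Its edgeR call in blf13 was lost without blf13 replicate 1, blf13 replicate 2 or Bonus replicate 1, and without the libraries numbered 2 of both. The call is a description, since this comparison chose the gene. In nal1 the gene had 13.8, 10.8 and 11.2 CPM, against 47.3, 51.8 and 45.8 CPM in Sebastian, a change of −2.04 (SE 0.10). Sebastian lay above Bonus by 0.30 (SE 0.09, edgeR adjusted p = 0.0439), a call that was lost without any 1 blf13 or Sebastian library, without Bonus replicate 1 or 3 or without nal1 replicate 3, with adjusted p of 0.0510 to 0.166.

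The 62 genes were spread over the 7 chromosomes read from their IDs. There were 14 on 3H (22.6%, against 15.3% of tested genes), 11 on 1H (17.7%, against 12.6%), 11 on 7H (17.7%, against 14.6%), 9 on 2H (14.5%, against 16.6%), 8 on 5H (12.9%, against 15.9%), 6 on 4H (9.68%, against 12.5%) and 3 on 6H (4.84%, against 12.2%). The median distance to the nearest other gene of the set was 482 ranks in ID order. A single pair lay within 5 ranks, HORVU.MOREX.r3.3HG0223760 and HORVU.MOREX.r3.3HG0223770, which are next to each other on 3H.

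The neighbours shared their highest and lowest genotype and differed in the order of the mutants. HORVU.MOREX.r3.3HG0223760 had 1.43, 1.59 and 1.15 CPM in blf13, against 0.556, 0.660 and 0.697 CPM in Bonus, and 1.01, 1.01 and 1.18 CPM in nal1, against 1.46, 1.68 and 1.45 CPM in Sebastian. HORVU.MOREX.r3.3HG0223770 had 5.09, 4.82 and 5.42 CPM in blf13, against 4.05, 3.56 and 3.35 CPM in Bonus, and 5.43, 5.39 and 6.05 CPM in nal1, against 8.31, 8.77 and 8.18 CPM in Sebastian. Sebastian had the highest and Bonus the lowest mean in both, while blf13 lay above nal1 in HORVU.MOREX.r3.3HG0223760 and below it in HORVU.MOREX.r3.3HG0223770. The blf13 change was 1.12 (SE 0.21) in HORVU.MOREX.r3.3HG0223760 and 0.49 (SE 0.11) in HORVU.MOREX.r3.3HG0223770, and Sebastian minus Bonus was 1.25 (SE 0.21, edgeR adjusted p = 0.000633) and 1.21 (SE 0.10, edgeR adjusted p = 1.30e-06). Both were among the 36 genes called in blf13 by edgeR, a comparison that chose them. Neither was called with a replicate block set within each cultivar background or in the fit to the 6 libraries alone. Both calls were also lost without blf13 replicate 1 or 2 or Bonus replicate 2, and that of HORVU.MOREX.r3.3HG0223760 without Bonus replicate 1.

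Calls were also counted in the tested genes next to the set, 210 within 5 ranks of one of the 62 and not of the set. The counts were small, and their differences from the shares over all genes were not tested. In blf13, 8 were higher (3.81%, against 1.21% of all tested genes) and 3 lower (1.43%, against 1.98%). In nal1, 12 were higher (5.71%, against 6.12%) and 16 lower (7.62%, against 5.42%). Between the wild types, 23 were higher in Sebastian (11%, against 8.44%) and 25 lower (11.9%, against 9.12%). The median log2 fold change of the 210 genes was 0.05 in blf13 and 0.00 in nal1.

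Most of the 62 genes had few reads. By mean CPM, which is not divided by gene length and here stands for count depth, 52 lay between 1 and 10 CPM (83.9%, against 41.7% of tested genes of at least 1 CPM), 9 between 10 and 100 and 1 above. Their median was 2.72 CPM, against 15 CPM over tested genes of at least 1 CPM. Reads per gene summed over the 12 libraries ranged from 359 to 40499 with a median of 997, and 17 genes had at least 1 library under 10 reads. The 2 strand-specific count columns add up to more than the unstranded column where a gene overlaps another on the opposite strand, and they did so by over 1.1 times in 1 of the 62 genes (1.61%, against 1.58% of tested genes).

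The highest values were spread over the replicates. In blf13 replicates 1, 2 and 3, 21, 23 and 18 of the 62 genes had their highest value of the genotype, against 22, 16 and 24 in Bonus. In nal1 these counts were 21, 19 and 22, against 25, 24 and 13 in Sebastian. The median deviation of the 62 genes from their own genotype mean was −0.014, −0.016 and −0.024 on the log2(CPM + 0.5) scale in blf13, against 0.030, −0.039 and −0.0019 in Bonus. It was −0.042, 0.0035 and 0.018 in nal1, against 0.015, 0.0046 and −0.018 in Sebastian.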

How the data were processed

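Read counts per gene were deposited by the authors, 1 file per library in STAR's layout (STAR 2.7.3a per the submitters' processing notes). Neither build nor trimming nor filters are stated there. Reads that map to several places or overlap several genes are counted for no gene in this layout. Per the labels' protocols, TRIzol was used for extraction and a NEBNext Ultra kit for the libraries, and the strand columns held near equal reads (46.3% to 56.6% in the first, over the 62 genes).

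The unstranded column was used, without its 4 summary lines, equal to 15.7% to 37.9% of each library's reads. Counts were filtered with filterByExpr by genotype, scaled by TMM and tested with edgeR 4.0.16 (quasi-likelihood F test, 1 coefficient per genotype, 12 libraries, Benjamini-Hochberg over 22437 genes) in R 4.3.3. SEs come from the F statistic. Checks used DESeq2 1.42.0, limma 3.58.1 (cyclic loess), glmTreat, replicate blocks and simulated data. Same-numbered libraries of blf13 and Bonus deviated together (r = 0.234, 0.289 and 0.230), which was taken as pairing from the data, since the labels state none. The main fit held no replicate block, so its calls and SEs leave this pairing out, and blocks entered only as checks. Values for nal1 and Sebastian were −0.126, −0.0388 and 0.0944.

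The members and all lists were chosen with earlier results of these data known. Genes were named as the 6 with the largest smaller change, the 3 with the highest mean CPM, the 2 most unequal on each side, the 2 extremes of Sebastian minus Bonus on each side, and members within 5 ranks of another.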

Additional observations from a re-analysis of the deposited data

How the results depend on the processing

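The rule gave 94 genes with a ratio of 1.2, 25 with 1.5 and 9 with 2, and 17 with a mean of at least 5 CPM, in place of 62. With cyclic loess scaling it gave 63 genes, 50 of them among the 62, and with 1 library left out 63 to 87. In all 12 such runs 39 of the 62 were kept, and 37 also under DESeq2 size factors, loess and no scaling. Members called in blf13 (36) were 17 in a fit to the 6 libraries alone, 14 against a fold of 1.3 and 14 without the libraries numbered 2 of blf13 and Bonus, an alternative chosen after seeing the data, and 20 to 37 without 1 library. Members called in nal1 (39) were 16 against a fold of 1.3 and 27 to 42 without 1 library. Members called in both (25) were 13, 4 and 11 under the alternatives listed for blf13, and 13 to 25 without 1 library. Members higher in Sebastian than in Bonus (16) were 10 against a fold of 1.3 and 14 to 16 without 1 library, and those lower (6) were 6 to 7.

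The median log2 fold change in blf13 was 0.68 with loess, 0.79 without the low-count filter, 0.79 with the 6 libraries alone, 0.70 without the libraries numbered 2, and 0.68 to 0.79 without 1 library. In nal1 it was −0.94 with loess, −0.85 with a replicate block within each cultivar, −0.77 with the 6 libraries alone, where 59 of the 62 were tested, and −0.86 to −0.75 without 1 library. Between the wild types it was 0.11 without the libraries numbered 2 and 0.11 to 0.21 without 1 library. No median changed sign. With a replicate block over all libraries, 32 members were called in blf13, 37 in nal1 and 21 in both, and with a block within each cultivar 27, 34 and 20. The block moved no count of members by more than 1.5 times. Among named genes it ended the blf13 call of HORVU.MOREX.r3.3HG0223770 in both forms and of HORVU.MOREX.r3.3HG0223760 within cultivars, and gave one to HORVU.MOREX.r3.7HG0656210 over all libraries. It also called HORVU.MOREX.r3.1HG0005090 between the wild types and HORVU.MOREX.r3.7HG0722660 in nal1 (within cultivars). The cause of these changes was not tested. The SE of the log2 fold change had a median of 0.19 in blf13 and 0.21 in nal1 for the 52 members under 10 CPM, and 0.10 and 0.11 for the 10 others.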
